A study of Mus musculus with 48 samples.

Results

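The genes described here are 10 mouse claudins that build the tight junctions of the kidney tubule and its vessels: Cldn1, Cldn2, Cldn3, Cldn4, Cldn5, Cldn7, Cldn8, Cldn10, Cldn16 and Cldn19. They were chosen by name. All 10 were present among the 18 claudin genes and 14238 gene symbols of the table, and all 10 passed the filter on low values in every comparison. The study took renal cortex of 24 male C57BL/6 mice with unilateral ischemia/reperfusion injury (IRI), in which the pedicle of 1 kidney is clamped and then released. The clamp was held for 20 minutes (mild model) or 40 minutes (severe model). Each mouse gave a left, injured kidney and a right kidney as its own control, labelled day 1 or day 3, which made 48 libraries in 8 groups of 6 kidneys. All mice were wild type and between 6 and 8 weeks old, and no allele or drug was compared. The methods describe removal of the right kidney as self-control before the clamp. Effects of the clamp, of surgery and of life with 1 kidney can then not be told apart in a comparison with controls.

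Claudins are membrane proteins of the tight junction that meet the claudins of the neighbouring cell in the cleft between both. Some form pores for ions or water, others seal the cleft, and each nephron segment carries its own mixture. The proximal tubule is known for Cldn2, a pore for cations and water, and for Cldn10a, an anion pore made from 1 of the alternative first exons of Cldn10. The thick ascending limb is known for Cldn16 and Cldn19, which together pass calcium and magnesium, and for Cldn10b, a sodium pore made from another first exon. The collecting duct is known for Cldn3, Cldn4, Cldn7 and Cldn8, of which Cldn4 and Cldn8 act together in chloride transport between cells. Cldn1 is a sealing claudin of many epithelia, and Cldn5 seals endothelium.

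Levels are given in FPKM, the fragments of a transcript scaled to its length and to the mapped fragments of the library, summed over the transcripts of a gene. Fold changes are on the scale of log2(FPKM + 0.01) and understate the change of genes near 0. A gene was called higher or lower at an adjusted p under 0.05 with a fold of at least 2 (limma, adjusted over all genes tested by Benjamini-Hochberg). Values are mean ± SD with n = 6 kidneys unless stated. The read depth was not given. The steps between low FPKM values put it at about 9450000 to 16050000 read pairs per library if each step is a single read. On that estimate the lowest value of a gene rested on 49 read pairs for Cldn5, 51 for Cldn3, 90 for Cldn16 and 93 for Cldn4, and on 0 for Cldn2, which was listed near 0 in 2 kidneys. Markers of the proximal tubule, the main part of the cortex, summed to 3136 to 4117 FPKM in controls. In bulk tissue, fewer cells of a type and less RNA per cell cannot be told apart.

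In the 24 control kidneys the proximal tubule pore genes were the most abundant of the 10. Cldn2 averaged 212 FPKM (127 to 283) and Cldn10 172 FPKM (134 to 238), followed by Cldn8 at 33.3 FPKM (28.2 to 42.9). The other 7 had lower mean levels, from Cldn19 at 10.5, Cldn1 at 10.3, Cldn7 at 10.3 and Cldn16 at 9.35 FPKM down to Cldn3 at 6.77, Cldn4 at 6.03 and Cldn5 at 5.50 FPKM. Cldn10 exceeded Cldn8, and Cldn8 exceeded Cldn19, in 24 of 24 control kidneys, and Cldn2 exceeded Cldn10 in 21 of them. The next neighbours were not ordered beyond their spread, since Cldn19 exceeded Cldn1 in 10 kidneys and Cldn1 exceeded Cldn7 in 12. The controls of both models were not alike for every claudin. Cldn10 was lower in the 40-minute than in the 20-minute controls without overlap on both days, at 148 ± 10.01 against 211 ± 22.9 FPKM on day 1 (limma adjusted p = 0.0040) and 147 ± 8.62 against 184 ± 17.6 FPKM on day 3 (adjusted p = 0.0095). On day 3 Cldn1 was higher in the 40-minute controls, at 12.7 ± 1.09 against 6.62 ± 1.07 FPKM (log2 difference 0.95, adjusted p = 0.00019). Cldn2 was also higher there, at 243 ± 23.8 against 198 ± 15.8 FPKM (adjusted p = 0.024), without overlap. Groups without overlap were found for 2.04% of all genes as lower on day 1, and for 2.14% as lower and 2.76% as higher on day 3. No claudin reached a fold of 2, and 0.452% and 0.919% of all genes were called between these controls on day 1 and day 3. Without replicate 2 of the 20-minute controls Cldn1 passed the fold, at a log2 difference of 1.02.

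**Figure D1:**
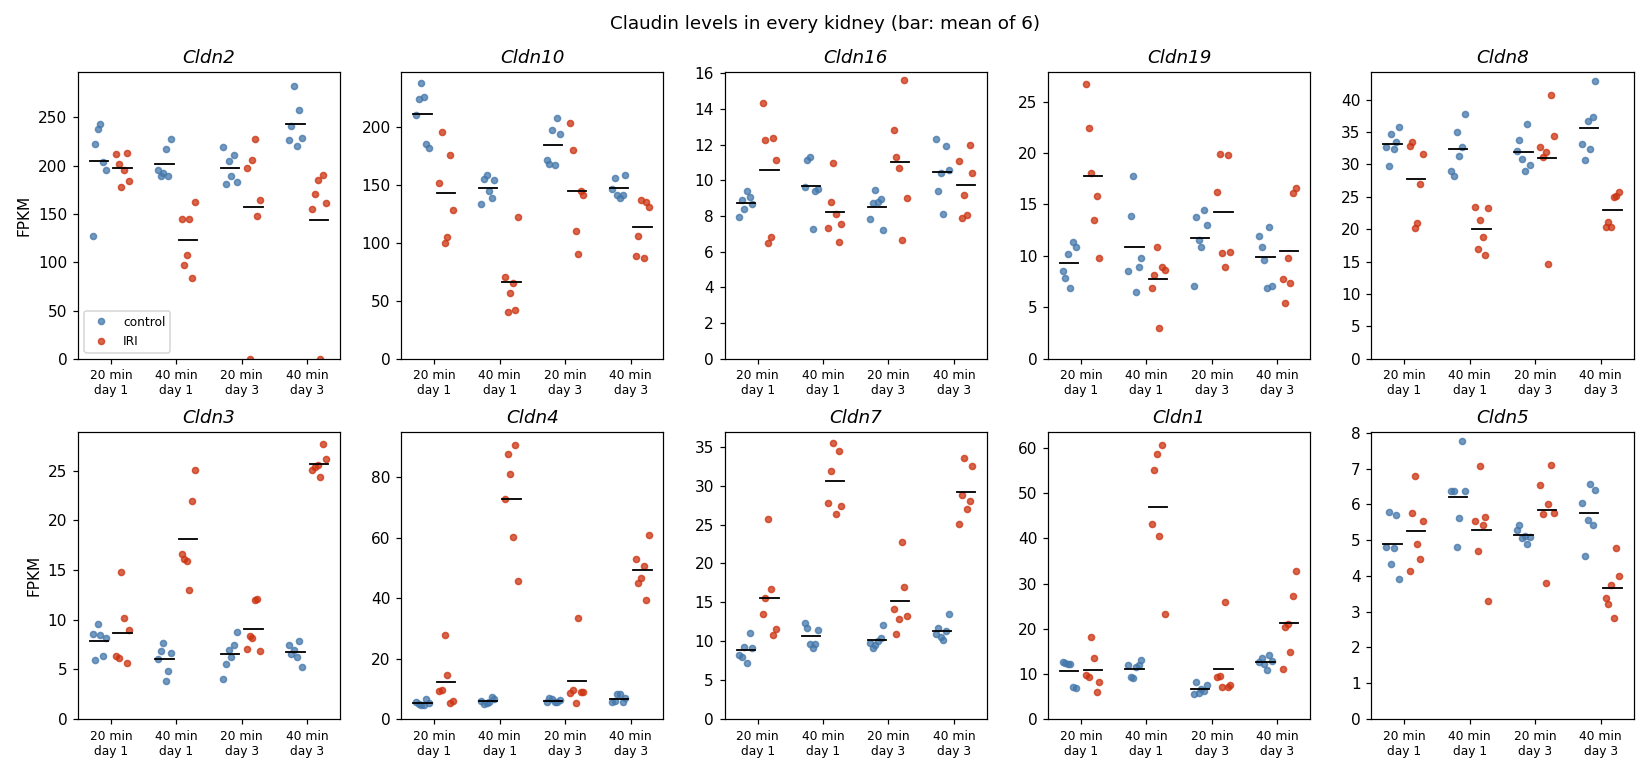
FPKM of the 10 claudins (vertical axes, linear, each from 0) in every kidney of the 8 groups, control in blue and IRI in red, with a bar at the mean of 6. Cldn4 lay between 45.5 and 90.7 FPKM in left kidneys on day 1 after 40 minutes and at 8.42 FPKM or below in all controls. Cldn2 was listed near 0 in 2 left kidneys of day 3.

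The severe model held more RNA of the collecting duct claudins Cldn4, Cldn3 and Cldn7 on both days, more Cldn1 on day 1 and less Cldn10 on day 1. Of the 10 claudins, 4 were called higher (Cldn4, Cldn1, Cldn3 and Cldn7) and 1 lower (Cldn10) on day 1, where 15.7% of all genes were called higher and 7.39% lower. On day 3, 3 were called higher (Cldn4, Cldn3 and Cldn7) and 0 lower, where 15.3% of all genes were called higher and 5.98% lower. At the adjusted p alone (limma), Cldn5, Cldn8 and Cldn10 were also below and Cldn1 above the controls on day 3, each by less than a fold of 2. The groups did not overlap for 7 of the 10 on day 1 and 6 on day 3, where this held for 35.7% and 38.3% of all genes. The median log2 fold change of the 10 was -0.25 on day 1 and -0.045 on day 3, beside 0.24 and 0.16 over all genes tested. In the exact permutation test of mean FPKM (two-sided, 6 kidneys against 6, 40 tests over the 10 claudins and 4 comparisons, not adjusted), claudins without overlap had the smallest p the design allows, 0.00216. Groups without overlap always give this p, so it adds nothing to their count. With libraries scaled to an equal median, which takes out the shift over all genes, the same genes were called, with Cldn4 at 3.35 and Cldn10 at -1.48 on day 1. After 20 minutes 0 of the 10 were called on either day, where 1.19% of all genes were called higher and 0.442% lower on day 1. On day 3 these shares were 2.34% and 1.73%. By limma at an unadjusted p under 0.05, 5 of the 10 passed on day 1 and 4 on day 3, where 26.1% and 31.3% of all genes did. The groups overlapped for all 10 after 20 minutes, where 5.2% and 10.3% of all genes did not overlap on day 1 and day 3.

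**Figure D2:**
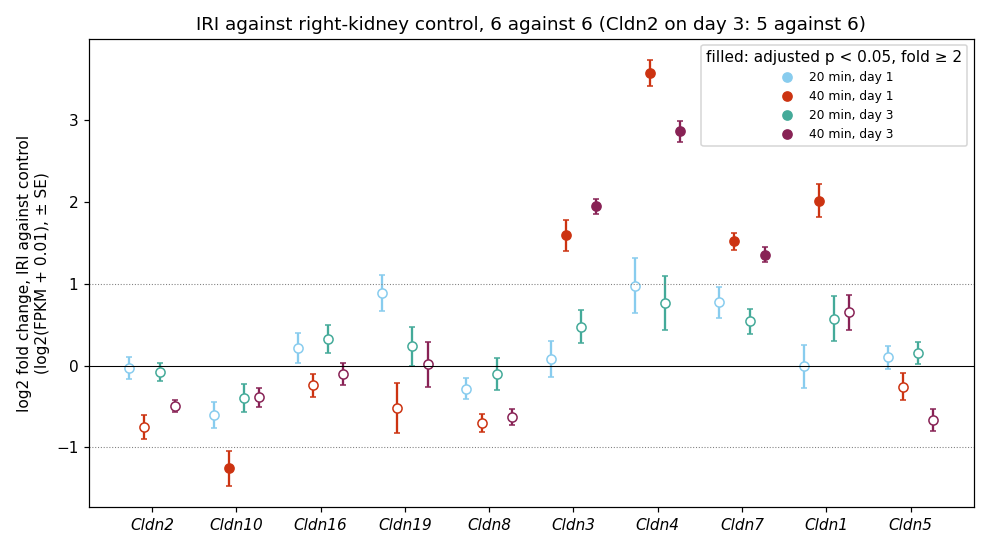
Fold change of IRI against control (vertical axis, log2 of FPKM + 0.01, ± SE) for the 10 claudins in the 4 comparisons, filled where called, with dotted lines at a fold of 2. Cldn3, Cldn4, Cldn7, Cldn1 and Cldn10 have filled points, all of them after 40 minutes. Cldn2 on day 3 is drawn without the kidney in which it was listed near 0.

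Cldn4, a collecting duct claudin that also seals other epithelia, had the largest fold change of the called claudins on both days. After 40 minutes on day 1 its level was 45.5, 76.9 and 90.7 FPKM (lowest, median and highest) in left kidneys and 5.07, 5.81 and 7.22 FPKM in controls. Every left kidney lay above every control, and the means were 73.0 ± 17.4 and 5.99 ± 0.79 FPKM (log2 fold change 3.58 ± 0.16 SE, limma adjusted p = 3.5e-09). On day 3 its level was 39.5, 48.6 and 61.0 FPKM in left kidneys and 5.59, 6.49 and 8.42 FPKM in controls. The groups were again apart, with a log2 fold change of 2.87 ± 0.13 (SE, limma adjusted p = 3.5e-09). The rise was smaller on day 3 than on day 1 when the fold changes themselves were compared, by 0.71 ± 0.21 on the log2 scale (limma adjusted p = 0.031).

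Cldn3 and Cldn7, claudins of the collecting duct and of other barrier epithelia, moved in the same direction at lower fold. Cldn3 was at 13.02, 16.3 and 25.0 FPKM in left kidneys and 3.86, 6.39 and 7.66 FPKM in controls on day 1 after 40 minutes, a log2 fold change of 1.59 ± 0.19 (SE, limma adjusted p = 1.2e-05). On day 3 its 6 left kidneys lay close together, at 24.3 to 27.7 FPKM, all above the 5.29 to 7.81 FPKM of the controls (log2 fold change 1.95 ± 0.09 SE, adjusted p = 3.0e-09). Cldn3 was the called claudin with the least spread in that group, at 25.7 ± 1.14 FPKM. Cldn7 was at 26.4, 29.8 and 35.5 FPKM in left kidneys and 9.16, 10.5 and 12.3 FPKM in controls on day 1 (log2 fold change 1.52 ± 0.10 SE, limma adjusted p = 1.1e-07). On day 3 it was at 25.1, 28.4 and 33.5 FPKM against 10.1, 11.1 and 13.5 FPKM, a log2 fold change of 1.36 ± 0.09 (SE, adjusted p = 5.9e-08). Cldn7 thus had nearly the same level on both days in the severe model, at 30.6 ± 3.90 and 29.2 ± 3.25 FPKM.

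Cldn1 was higher on day 1 after 40 minutes and closer to the controls on day 3. Its level on day 1 was 23.3, 49.2 and 60.8 FPKM in left kidneys and 9.05, 11.7 and 13.1 FPKM in controls, so that the groups did not overlap (log2 fold change 2.02 ± 0.21 SE, limma adjusted p = 3.5e-06). On day 3 it was at 11.1, 20.7 and 32.7 FPKM in left kidneys and 10.9, 12.8 and 14.1 FPKM in controls. The lowest left kidney of day 3 lay among the controls, and the log2 fold change of 0.65 ± 0.22 (SE, adjusted p = 0.020) was below the fold of 2. The fold change on day 3 lay below that on day 1, by a log2 difference of -1.37 ± 0.31 (SE, limma adjusted p = 0.011).

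The collecting duct genes lie on chromosomes 5, 11 and 16 of GRCm38. Cldn4 (134945119 to 134946934, minus strand) and Cldn3 (134986214 to 134987472, plus strand) are neighbours 39.28 kb apart on chromosome 5, and Cldn1 and Cldn16 are 91.294 kb apart on chromosome 16. The 250 bases before the start site of the higher claudins that have a single annotated start in the promoter table are printed because these genes were called higher on day 1 of the severe model (RefSeq, GRCm38.p6, 5′ to 3′ on the strand of the gene). Capitals mark matches on either strand to the letters CAGGTG, a site that Snail-family repressors bind, TGANTCA, which AP-1 binds, and AACNNGTT, which grainyhead-like factors bind.
Cldn4, chr5:134946935-134947184, minus strand: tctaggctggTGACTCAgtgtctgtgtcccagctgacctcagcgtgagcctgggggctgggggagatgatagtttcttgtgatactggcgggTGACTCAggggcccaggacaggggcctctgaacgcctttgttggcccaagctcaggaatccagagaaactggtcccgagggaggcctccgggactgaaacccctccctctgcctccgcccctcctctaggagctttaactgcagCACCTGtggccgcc
Cldn3, chr5:134985964-134986213, plus strand: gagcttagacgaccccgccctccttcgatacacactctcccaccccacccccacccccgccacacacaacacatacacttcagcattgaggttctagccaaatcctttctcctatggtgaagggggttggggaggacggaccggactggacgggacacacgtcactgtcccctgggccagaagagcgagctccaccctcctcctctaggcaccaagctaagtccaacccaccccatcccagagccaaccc
Cldn1, chr16:26371840-26372089, minus strand: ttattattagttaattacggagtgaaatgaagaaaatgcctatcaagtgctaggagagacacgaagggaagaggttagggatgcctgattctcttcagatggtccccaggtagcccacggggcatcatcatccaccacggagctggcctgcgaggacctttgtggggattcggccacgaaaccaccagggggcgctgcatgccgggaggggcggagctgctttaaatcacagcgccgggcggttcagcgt
The Cldn4 window held 1 match to CAGGTG and 2 to TGANTCA, and those of Cldn3 and Cldn1 held none of the 3 motifs. Cldn7 has a pair of start sites, and its second window held 2 matches to CAGGTG. Over all 12 windows of the 10 claudins, CAGGTG was present in 2, TGANTCA in 1 and AACNNGTT in 1. Of 32851 windows of this length in the genome, 17.2% held CAGGTG, 6.75% TGANTCA and 3.64% AACNNGTT. A match is a description of the letters only, and no binding was measured.

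Cldn8, the collecting duct partner of Cldn4, went the other way in the severe model. On day 1 after 40 minutes it was at 16.0, 20.1 and 23.4 FPKM in left kidneys and 28.2 to 37.8 FPKM in controls. No left kidney reached the lowest control, and the log2 fold change was -0.70 ± 0.11 (SE, limma adjusted p = 0.00014). On day 3 it was at 20.3, 23.1 and 25.8 FPKM against 30.7, 34.9 and 42.9 FPKM, a log2 fold change of -0.63 ± 0.09 (SE, adjusted p = 8.2e-05). Both differences were below the fold of 2, so Cldn8 was not called. Klhl3, the adaptor of a ubiquitin ligase known to take claudin-8 for degradation, was called lower on both days, at 2.31 ± 0.74 against 10.2 ± 1.21 FPKM on day 1 (log2 fold change -2.18) and 4.08 ± 0.87 against 11.02 ± 1.49 FPKM on day 3 (-1.45).

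The proximal tubule pore genes Cldn2 and Cldn10 were lower on day 1 after 40 minutes, and Cldn10 passed the fold of 2. Cldn10 was at 40.0, 61.0 and 122 FPKM in left kidneys and 134, 149 and 159 FPKM in controls. Replicate 6 of the left kidneys, at 122 FPKM, stood above its 5 fellows and still below every control (log2 fold change of the group -1.26 ± 0.22 SE, limma adjusted p = 0.00028). On day 3 Cldn10 was at 87.1, 118 and 137 FPKM against 139, 144 and 159 FPKM, a log2 fold change of -0.39 ± 0.12 (SE, adjusted p = 0.013). Its fold change differed between the days by 0.87 ± 0.26 (SE, limma adjusted p = 0.030), but not by the most abundant transcript alone (0.79, adjusted p = 0.11). Cldn2 was at 83.4, 126 and 162 FPKM in left kidneys and 189, 194 and 227 FPKM in controls on day 1, without overlap (log2 fold change -0.75 ± 0.15 SE, limma adjusted p = 0.00077).

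On day 3 the values of Cldn2 were unlike those of any other member. Replicate 2 of the 20-minute left kidneys was listed at 0.0073 FPKM and replicate 4 of the 40-minute left kidneys at 0.0059 FPKM, while the other 5 kidneys of these groups held 148 to 228 and 155 to 190 FPKM. Over all genes with a median of at least 50 FPKM in the other kidneys of a group, only 4 of 62595 values lay under 1% of that median, in 2 genes. Both Cldn2 values are among these 4. Replicate 4 of the 40-minute left kidneys held 2 of the 4, so the other gene was near 0 there as well. Whether the Cldn2 values near 0 are failed estimates was not tested. With both kept, the log2 fold change of Cldn2 after 40 minutes was -2.73 ± 1.99 (SE, limma adjusted p = 0.26). With them taken as missing, it was -0.49 ± 0.08 after 40 minutes (adjusted p = 0.00017) and -0.08 ± 0.11 after 20 minutes (adjusted p = 0.65).

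Cldn10 was split by its first exons. Transcripts that begin at the upstream exon (from 118787908 on chromosome 14, GRCm38), which give Cldn10a, made up most of its FPKM, and the transcript with the downstream first exon (from 118854732), which gives Cldn10b, held 10.1% of it over the 48 libraries. On day 1 after 40 minutes Cldn10a averaged 59.0 FPKM in left kidneys and 127 FPKM in controls, and Cldn10b 7.20 and 20.1 FPKM. The share of Cldn10a was 87.9 ± 7.14% in left kidneys and 86.7 ± 9.71% in controls on that day, a difference of 1.17 percentage points (exact permutation test, two-sided, p = 0.82, adjusted over 4 comparisons 0.82). In the other 3 comparisons the share in left kidneys differed by -0.52, -2.80 and -2.24 points, each within the SD of its groups (exact p = 0.71, 0.48 and 0.57). On day 1 after 40 minutes the main Cldn10a transcript was the only transcript of the 10 claudins called lower (log2 fold change -1.22, limma p adjusted over all transcripts 0.0029), and 4 were called higher, 1 each of Cldn1, Cldn3, Cldn4 and Cldn7. Of all transcripts 10.3% were called higher and 5.08% lower there. On day 3 the calls were 5 higher, 3 of them of Cldn7, and 0 lower, where 9.56% and 4.28% of all transcripts were called. The main Cldn7 transcript held 95.2% of its FPKM over the 48 libraries. The other Cldn7 transcripts called were low, at 0.98 and 1.04 FPKM in left kidneys and 0.096 and 0.13 FPKM in controls.

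**Figure D3:**
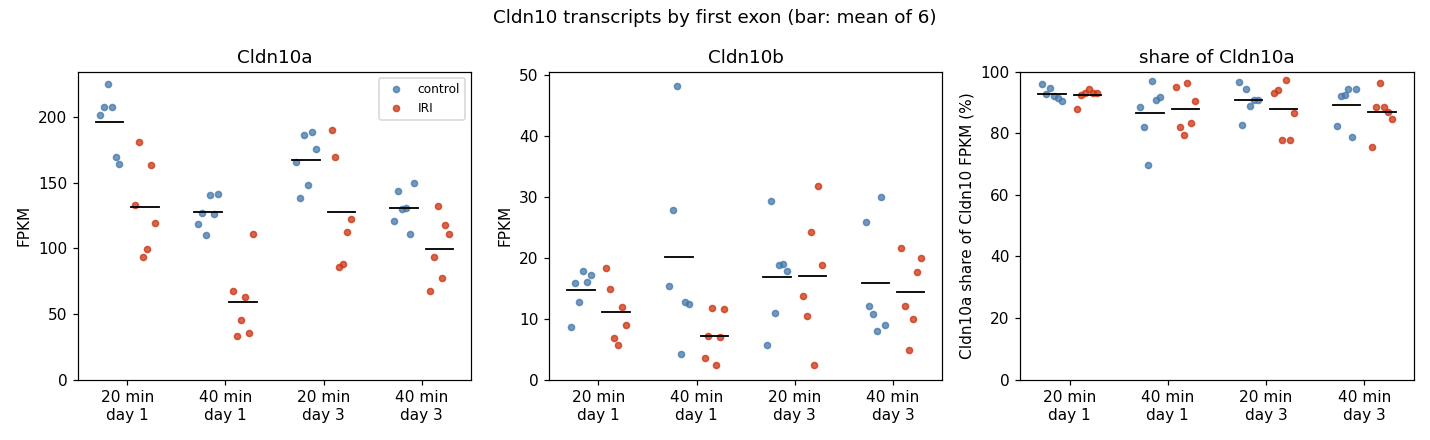
FPKM of the Cldn10 transcripts with the first exon of Cldn10a (left) and of Cldn10b (middle), and the share of Cldn10a in percent (right), in every kidney of the 8 groups, with a bar at the mean of 6. The group means of the share lie between 86.7% and 92.9%, and left and right kidneys overlap in all 4 comparisons of the share.

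Cldn16 and Cldn19, the calcium and magnesium pore genes of the thick ascending limb, did not pass the test against controls after 40 minutes. Cldn16 was at 6.57, 7.83 and 10.9 FPKM in left kidneys and 7.28, 9.57 and 11.3 FPKM in controls on day 1 (log2 fold change -0.24 ± 0.14 SE, limma adjusted p = 0.14), and at 9.75 ± 1.66 against 10.5 ± 1.56 FPKM on day 3 (-0.10, adjusted p = 0.51). Cldn19 was at 2.98, 8.37 and 10.9 FPKM in left kidneys and 6.46, 9.37 and 17.8 FPKM in controls on day 1 (-0.52 ± 0.31 SE, adjusted p = 0.17), and at 10.5 ± 4.71 against 9.86 ± 2.47 FPKM on day 3 (0.01, adjusted p = 0.97). The ranges of left and right kidneys overlapped for both genes on both days. After scaling by the median the adjusted p of Cldn16 on day 1 was 0.0072 at a log2 fold change of -0.47, below the fold of 2.

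Cldn5, the sealing claudin of endothelium, did not pass the test on day 1 after 40 minutes and was lower on day 3 by less than a fold of 2. Its level on day 3 was 2.82, 3.56 and 4.77 FPKM in left kidneys and 4.55, 5.81 and 6.57 FPKM in controls, with 1 left kidney above the lowest control. The log2 fold change was -0.67 ± 0.13 (SE, limma adjusted p = 0.00085), and it was -0.26 ± 0.17 on day 1 (adjusted p = 0.21). Of 8 endothelial markers 0 were called on day 3, where 15.3% of all genes were called higher and 5.98% lower. On day 1, 1 of the 8, Pecam1, was called higher, near the 15.7% of all genes called higher. Relative to the mean log2 level of these markers, Cldn5 changed by -0.57 on day 1 and -0.32 on day 3 (exact permutation test, two-sided, p = 0.013 and 0.29, adjusted over the 40 such tests 0.035 and 0.38). The summed level of these markers was 49.0 to 104 FPKM in left kidneys and 89.6 to 106 FPKM in controls on day 3.

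In the mild model 0 of the 10 claudins were called, and several moved within the fold of 2. On day 1 the limma adjusted p was 0.034 for Cldn7 (log2 fold change 0.77), 0.044 for Cldn10 (-0.60) and 0.037 for Cldn19 (0.88), none with separate groups (exact permutation p = 0.0043, 0.0087 and 0.0087). With the mouse as a block these were 0.084, 0.096 and 0.087. Cldn4 reached a log2 fold change of 0.98 on day 1 (adjusted p = 0.092), with kidneys at 5.42, 9.45 and 27.99 FPKM against 4.50, 5.03 and 6.73 FPKM in controls. Without replicate 5 of the left kidneys Cldn4 was called, at 1.16 (adjusted p = 0.042), and without replicate 6 both Cldn4, at 1.13 (0.035), and Cldn19, at 1.04 (0.0063), were called. On day 3 Cldn7 had a log2 fold change of 0.54 (adjusted p = 0.027), and the other 9 did not pass the adjusted p.

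Single kidneys of the mild model stood out together with their injury markers. Replicate 4 of the left kidneys on day 3 held the highest Cldn4 (33.5 FPKM) and Cldn1 (25.9 FPKM) and the lowest Cldn8 (14.7 FPKM) and Cldn10 (90.3 FPKM) of its group. Its Cldn2 (228 FPKM) was also the highest of the group, unlike the lower Cldn2 of the severe model. The 7 genes listed as markers of injured proximal tubule (Havcr1, Lcn2, Vcam1, Krt20, Sox9, Spp1 and Clu) summed to 8549 FPKM in this kidney and to 673 to 2535 FPKM in its 5 fellows. Havcr1 alone was at 728 FPKM in this kidney and at 0.66 to 38.5 FPKM in the fellows. On day 1, replicate 3 held the highest Cldn4 (27.99 FPKM) and the highest marker sum (5585 FPKM), with Cldn8 at 20.2 and Cldn16 at 6.48 FPKM, the lowest of its group. The part of this marker level in the claudin values was not tested. In the severe model the marker sum was 4586 to 8186 FPKM on day 1 and 3570 to 5370 FPKM on day 3, and 543 to 843 FPKM in the 40-minute controls of day 1. Replicate 6 of the left kidneys had the lowest sum of day 1. It held the lowest Cldn1 (23.3 FPKM) and Cldn4 (45.5 FPKM) of its group. Its Cldn10 (122 FPKM) and Cldn2 (162 FPKM) were the highest, but so was its Cldn3 (25.0 FPKM).

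The difference between both models was tested in the left kidneys and as a difference of fold changes. In left kidneys on day 1, 4 claudins were higher after 40 than after 20 minutes (Cldn4 by 2.79, Cldn1 by 2.14, Cldn3 by 1.11 and Cldn7 by 1.02 on the log2 scale) and 2 lower (Cldn19 by -1.22 and Cldn10 by -1.17), where 7.82% of all genes were called higher and 5.88% lower. Cldn10 was also lower in the 40-minute than in the 20-minute controls of day 1, at 148 against 211 FPKM. Its log2 fold changes against controls, -1.26 and -0.60, were not shown to differ. Cldn7 fell under the fold of 2, at 0.93 to 0.99, without replicate 1, 5 or 6 of the 20-minute or 3 or 5 of the 40-minute left kidneys, and Cldn19 did so at -0.97 without replicate 4 of the latter. On day 3, 3 were higher (Cldn4 by 2.25, Cldn3 by 1.54 and Cldn1 by 1.03) and 0 lower, where 9.82% of all genes were called higher and 2.32% lower. The 40-minute controls of day 3 were higher in Cldn1 by a like log2 difference, 0.95, and its fold changes against controls, 0.65 and 0.57, were not shown to differ (difference 0.078, limma adjusted p = 0.90). Cldn1 was near both thresholds in left kidneys (limma adjusted p = 0.033), and leaving out any kidney but replicate 4 of the 20-minute or replicates 1 and 4 of the 40-minute left kidneys ended the call, at a log2 difference of 0.89 to 1.02 and an adjusted p of 0.057 to 0.073. Cldn7 was just below the fold, at 0.98, and passed it at 1.10 without replicate 4 and at 1.02 without replicate 5 of the 20-minute or replicate 1 of the 40-minute left kidneys.

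The fold changes against controls differed between the models on day 1 for 6 claudins: Cldn4 (2.60), Cldn1 (2.03), Cldn3 (1.51) and Cldn7 (0.74) were higher after 40 minutes, Cldn2 (-0.72) and Cldn19 (-1.40) lower. Of all genes 18.5% passed this test as higher and 11.3% as lower. Without replicate 3 of the 20-minute left kidneys 5 were lower, with Cldn8 (-0.50), Cldn10 (-0.75) and Cldn16 (-0.59) added. Without replicate 6 of the 40-minute left kidneys 4 were lower, with Cldn8 (-0.46) and Cldn10 (-0.86) added, and without replicate 4 of the 20-minute left kidneys Cldn8 was lower at -0.49. On day 3 the fold changes of Cldn4 (2.11), Cldn3 (1.47) and Cldn7 (0.81) were higher after 40 minutes and that of Cldn5 lower (-0.82), where 20.4% of all genes passed as higher and 8.99% as lower. With the mouse as a block Cldn8 was lower too (-0.52, adjusted p = 0.048, without the block 0.088). Without replicate 4 of the 20-minute left kidneys Cldn8 (-0.72) and Cldn16 (-0.57) passed as lower, and with Cldn2 near 0 taken as missing Cldn2 did (-0.41, adjusted p = 0.028).

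Between the days, 0 of the 10 claudins were called in the left kidneys after 20 minutes, where 0% of all genes were called (limma, with 0 of the 10 and 12.9% of all genes at an unadjusted p under 0.05). The fold changes against controls did not pass the test between the days for any of them either, where 0.0841% of all genes passed. After 40 minutes 1 was called, Cldn1, lower on day 3 by a log2 difference of -1.17 (limma adjusted p = 0.015), where 3.31% of all genes were called higher and 1.63% lower. Without replicate 1 of the 40-minute left kidneys of day 3 it was just under the fold of 2, at -0.997. Cldn10 rose between the days within that fold (0.86, adjusted p = 0.025), and it passed the fold, at 1.06, without replicate 6 of the left kidneys of day 1. Cldn3 was higher (0.54, adjusted p = 0.016) and Cldn4 lower (-0.54, adjusted p = 0.032) on day 3, both within the fold. As a difference of fold changes, Cldn1 and Cldn4 were lower and Cldn10 higher on day 3 after 40 minutes, where 8.2% of all genes passed as lower and 5.69% as higher. The calls of Cldn4 and Cldn10 were both lost without replicate 2, 3 or 5 of the left kidneys of day 1 (limma adjusted p = 0.056 to 0.059 and 0.053 to 0.057). That of Cldn4 was also lost without replicate 2 of the controls of day 1, replicate 3 or 4 of the controls of day 3, or replicate 2 or 5 of the left kidneys of day 3 (0.050 to 0.054). Without replicate 6 of the left kidneys of day 1 Cldn5 passed as lower (-0.54, adjusted p = 0.042).

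Beside the markers of their own segments, the claudins of the severe model moved unequally. On day 1 after 40 minutes 7.39% of all genes were called lower. Of 8 proximal tubule markers 7 were called lower there, among them Miox, Slc7a13 and Slc34a1, and the median log2 fold change of the list was -1.79, beside -0.75 for Cldn2 and -1.26 for Cldn10. Relative to the mean log2 level of these markers, Cldn2 changed by 1.17 and Cldn10a by 0.68 on day 1, and Cldn10a by 1.51 on day 3 (exact permutation test, two-sided, p = 0.00216 for each, the smallest it can give, adjusted over the 40 such tests 0.0079). Of 6 thick ascending limb markers 4 were called lower on day 1, among them Bsnd, Kcnj1 and Slc12a1. Umod, named after its value was seen, was at a log2 fold change of 0.047. Relative to this list Cldn16 changed by 0.81 on day 1 and 0.76 on day 3 (exact permutation p = 0.00216 for both, adjusted 0.0079). Cldn19 changed by 0.54 on day 1, which did not pass the adjustment (exact p = 0.048, adjusted 0.083), and by 0.87 on day 3 (exact p = 0.0065, adjusted 0.020). These changes weigh each marker equally. The summed level of the list overlapped, at 617 to 976 FPKM in left kidneys and 760 to 1461 FPKM in controls on day 1. On day 3 it was 662 to 1015 against 895 to 1242.5 FPKM. Change relative to the summed level was not tested. Of 7 collecting duct markers 2 were called lower on day 1, Avpr2 and Aqp3. Cldn8 relative to this list changed by 0.10 on day 1 and 0.08 on day 3 (exact permutation p = 0.52 and 0.38, adjusted 0.61 and 0.49), while Cldn4 changed by 4.38 and 3.57. The summed level of the collecting duct markers was 147 to 256 FPKM in left kidneys and 338 to 426 FPKM in controls on day 1 after 40 minutes, and 195 to 301 FPKM in the 20-minute controls, below those of the 40-minute model. The part of this difference between controls was not tested. The comparison with segment markers was added after the values had been seen.

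**Figure D4:**
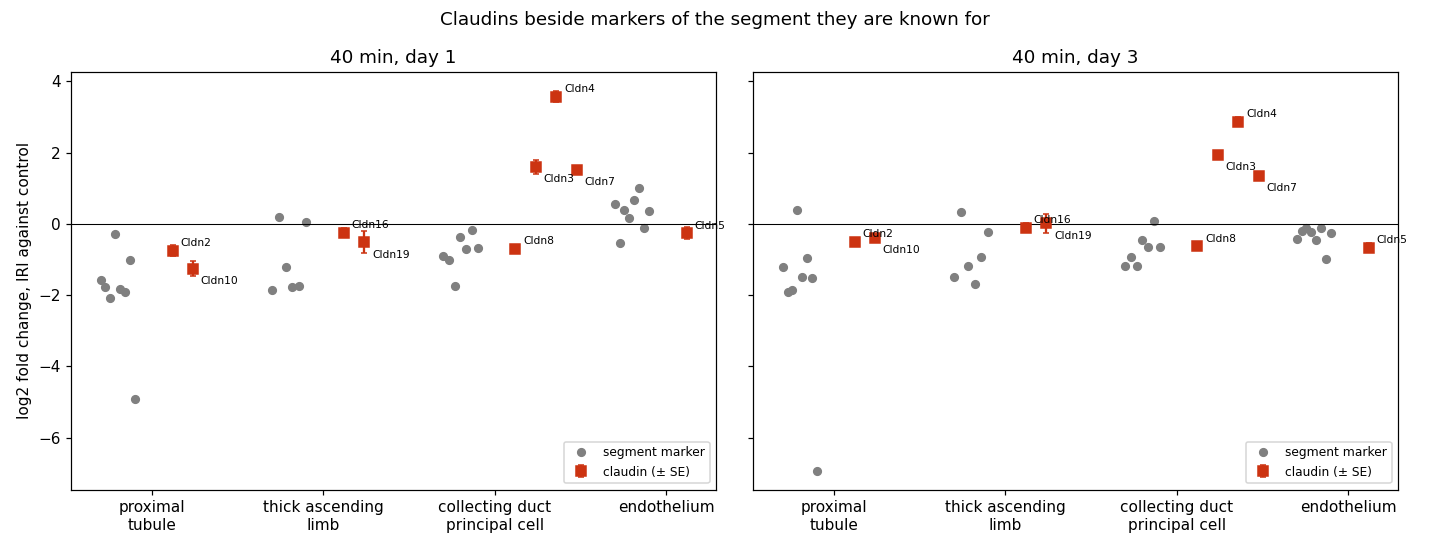
Log2 fold change of IRI against control (vertical axis) after 40 minutes on day 1 (left) and day 3 (right), for segment markers (grey) and for the claudins known from that segment (red, ± SE). Cldn1 is not drawn, and Cldn2 on day 3 is drawn without the kidney listed near 0. Cldn4, Cldn3 and Cldn7 lie above 0 while the median of the collecting duct markers lies below it, at -0.72 on day 1.

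Other cell types moved too in the severe model. All 7 markers of injured proximal tubule and all 5 fibroblast markers were called higher on both days, and 3 of 5 macrophage markers on day 1 and 4 on day 3, where 15.7% and 15.3% of all genes were called higher. Of 5 urothelial markers, another epithelium that carries Cldn4, 1 (Krt5) was called higher on day 1 and 2 (Krt5 and Upk1b) on day 3. Their summed level was 1.67 to 6.74 FPKM in left kidneys and 0.18 to 2.53 FPKM in controls on day 1. Macrophage markers summed to 65.8 to 432 against 31.3 to 85.9 FPKM and fibroblast markers to 90.7 to 495 against 25.2 to 45.7 FPKM on that day. On day 3 macrophage markers summed to 173 to 486 against 24.4 to 35.8 FPKM. No marker of these lists was listed at 0 in all kidneys of a group. The part of these cells in the claudin levels was not tested.

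Across the 48 libraries Cldn4 and Cldn7 were the most alike of the 10, with a Pearson correlation of log2(FPKM + 0.01) of 0.96. Cldn4 correlated with Cldn3 at 0.86, with Cldn1 at 0.84, with Cldn8 at -0.82 and with Cldn10 at -0.82. These are descriptions over libraries that share groups and mice. Among 11833 genes whose mean was 1 FPKM or more, those most like Cldn4 were Slc25a24 (0.98), Anxa3 and Plp2, and Krt18 (0.96) and Gm6169 were among those most like Cldn7. The nearest to Cldn1 were Tnfaip1 (0.91), Banf1 and Zdhhc18, and those most like Cldn3 were Ptgfrn (0.93), Npc1 and Mmp14. Cldn8 was nearest to Klhl3 (0.87), Mpc2 and Ppargc1a, and Cldn10 to Slc5a8 (0.92), Thnsl2 and 2610528J11Rik. Umod (0.73) and Foxc1 were among those most like Cldn19. Cldn16 was nearest to Slc12a1 (0.65), Acacb and Fbxo44, and Cldn5 to Clpp (0.72), Hist3h2a and Snrpd3. Cldn2 was nearest to Acnat1 (0.83), Hist1h2bg and Hgd over the 46 libraries without the 2 near 0, and to Dnajb14 (0.67), Naa25 and Zbp1 over all 48.

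The other 8 claudins of the table were mostly low. Cldn6, known from embryonic epithelia, was called higher after 40 minutes, at 1.73 ± 0.46 against 0.71 ± 0.41 FPKM on day 1 and 3.60 ± 0.90 against 0.61 ± 0.20 FPKM on day 3 (limma adjusted p = 0.0018 and 1.4e-06). Cldn11, a claudin of myelin and Sertoli cells, and Cldn23 were called higher on both days after 40 minutes at group means under 1 FPKM. Cldn14, known to block the Cldn16 pore, was called higher on day 1 after 40 minutes (0.94 ± 0.48 against 0.21 ± 0.11 FPKM) and on day 3 after 20 minutes (0.615 ± 0.525 against 0.0572 ± 0.0689 FPKM). Cldn12, Cldn15, Cldn20 and Cldn34c1 were called in none of the 4 comparisons with controls.

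The other junction genes were counted by list. Of 12 other transmembrane proteins of the tight junction, 3 were higher on day 1 after 40 minutes: Cxadr, the adenovirus receptor (log2 fold change 1.00), Igsf5 (1.18) and Lsr, a protein of tricellular junctions (1.08), and 0 on day 3, where 15.7% and 15.3% of all genes were called higher. Of 6 adherens junction genes, 1 was higher on both days, near those shares: Cdh6, a cadherin of the proximal tubule (1.56 and 1.34). Their medians were 0.31 and 0.64 on day 1 beside 0.24 over all genes. Neither list held a called gene after 20 minutes.

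Of 13 genes known to act on claudin genes or proteins, 3 were higher and 1 lower on each day after 40 minutes, where 15.7% of all genes were called higher and 7.39% lower on day 1. The shares of day 3 were 15.3% and 5.98%, and the counts are near all of these. The epithelial factor Elf3 was higher on day 1 and day 3 (log2 fold change 1.31 and 1.60) and also on day 1 after 20 minutes (1.12, limma adjusted p = 0.021). The repressor Snai1 was higher on both days (1.66 and 1.15), at 2.08 against 0.65 FPKM on day 1. Twist1 was higher on day 1 (1.11) and Zeb2 on day 3 (1.16), both repressors of epithelial genes, and Klhl3 was the gene called lower. The lists were chosen with earlier results known, and their counts are descriptions.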

How the data were processed

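Renal cortex RNA of 24 mice was sequenced by the authors in 48 libraries with Illumina instruments (150 cycles) after mRNA enrichment. Per the methods, reads were checked with FastQC 0.11.7, aligned to GRCm38 with HISAT2 2.1.0 and turned into FPKM with Ballgown. The authors deposited FPKM of 33953 transcripts, which sum to 381308 to 421059 per library. Every transcript reaches 0.5 FPKM in at least 1 library. FPKM divides by length and library size, so counts are not given and a large rise of some genes lowers the others. Of the transcripts 33871 were found in GENCODE release 21 and summed by symbol into 14238 symbols and 14320 features in all.

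Groups followed the labels, and all samples were used. limma 3.58.1 (R 4.3.3; lmFit, eBayes with trend) was run on log2(FPKM + 0.01) for every gene whose mean reached 0.01 FPKM in the libraries compared, and p was adjusted by Benjamini-Hochberg. Calls took 0.05 as threshold of the adjusted p together with a fold of 2, and a difference of fold changes the p alone. The steps were tested on simulated data. Exact permutation tests (two-sided, 6 kidneys against 6, smallest p 0.00216), correlations and promoter searches used Python 3.11.15, numpy 2.4.6, pandas 2.3.3 and scipy 1.17.1, and plots matplotlib 3.10.9. Left and right kidneys that share a number in the labels are paired by mouse. Over 11834 genes, deviations of left and right kidney from their group means were hardly related (median correlation over 6 mice 0.0035 and 0.039 after 20 minutes on day 1 and day 3, 0.059 and -0.018 after 40 minutes). This correlation does not speak for a single gene. No block was used for the reported values. The methods do not say whether the mouse was a term. Depth was estimated from the value steps of 769 transcripts (median 12425000 read pairs if each step is 1 read of a pair).

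The members and lists were chosen with earlier results of these data known. Named were the 10 claudins, all other claudins of the table, members of the junction and factor lists called against controls, the 3 members of a marker list with the smallest adjusted p, and the 3 genes most correlated with each claudin. Some results that this rule names are not reported here. Alternatives were 1 FPKM added, no filter and a mean of at least 1 FPKM, libraries scaled to an equal median, the most abundant transcript per gene, eBayes without trend, the mouse as a block and leaving out each kidney. Leaving out both libraries with Cldn2 near 0, or taking these values as missing, was chosen after seeing the data.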

Additional observations from a re-analysis of the deposited data

Results flagged for a closer look

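Of 80 groups of 6 kidneys looked at, 5 held a kidney whose gap to the nearest other, as a share of the range of its group, was above Dixon's critical value. Chance flags about 1 in 20 groups. Of these, 3 were replicate 4 of the left kidneys on day 3 after 20 minutes, the kidney with the highest sum of injury markers in its group, at 25.9 FPKM of Cldn1, 33.5 FPKM of Cldn4 and 14.7 FPKM of Cldn8. The other 2 were Cldn2 at 0.0073 FPKM in replicate 2 of the same group and at 0.0059 FPKM in replicate 4 of the left kidneys on day 3 after 40 minutes.

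By limma, 13 fold changes of IRI against control differed between models or days. On day 1 those after 40 minutes exceeded those after 20 minutes by a log2 difference of 2.03 for Cldn1, 1.51 for Cldn3, 2.60 for Cldn4 and 0.74 for Cldn7, and lay below them with -0.72 for Cldn2 and -1.40 for Cldn19. On day 3 the differences were 1.47 for Cldn3, 2.11 for Cldn4, 0.81 for Cldn7 and -0.82 for Cldn5. Between day 3 and day 1 after 40 minutes they were -1.37 for Cldn1, -0.71 for Cldn4 and 0.87 for Cldn10. Of all genes, 29.8% passed the test between the models on day 1 and 29.4% on day 3. Between the days 13.9% of all genes passed after 40 minutes and 0.0841% after 20 minutes, where no claudin did.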

How the results depend on the processing

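Over the alternatives that keep all libraries or leave out those with Cldn2 near 0, 205 of 212 counts and shares stayed within 1.5 times or 1 SD of the reported value, and over those that leave out 1 kidney 549 of 576 did. The genes called against controls after 40 minutes were the same in number under all of them, and their transcripts on day 1 were 5 to 6 on leaving out 1 kidney. With libraries scaled to an equal median, 2 claudins (in place of 4) were higher in 40-minute than in 20-minute left kidneys on day 1, Cldn3 at 0.99 and Cldn7 at 0.90 falling under the fold of 2. For the difference of fold changes between the models on day 3, 2 claudins (in place of 1) were lower with scaling, with the mouse as a replicate block, without both libraries with Cldn2 near 0 and with these values as missing. For the difference between the days after 40 minutes, 0 (in place of 1) were higher with the most abundant transcript, and 1 (in place of 2) lower with scaling. The causes were not tested. The block changed no other call. Cldn7 in 40-minute against 20-minute left kidneys on day 1 was at 0.97 with 1 FPKM added. Cldn1 on day 3 was at 0.95 with 1 FPKM added, at 0.86 with scaling and at 1.11 (limma adjusted p = 0.068) without both libraries.

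Leaving out 1 kidney gave the following ranges of counts. Claudins higher after 20 minutes on day 1 ranged from 0 to 2. In left kidneys after 40 against 20 minutes, 1 to 2 were lower on day 1. Lower differences of fold changes between the models ranged from 2 to 5 on day 1 and from 1 to 3 on day 3. Between the days after 40 minutes, 0 to 1 were higher and 0 to 1 lower in left kidneys, and 0 to 1 fold changes were higher and 1 to 3 lower. In 40-minute against 20-minute controls on day 3, 0 to 1 were higher. Claudins without overlap after 20 minutes ranged from 0 to 1 on day 1 (1 without replicate 2, 5 or 6 of the left kidneys or 5 of the controls) and from 0 to 2 on day 3 (1 without replicate 2 of the left kidneys or 6 of the controls, 2 without replicate 3 of the left kidneys). Depth limits Cldn5 and Cldn3 most.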
